A study of Mus musculus with 3 samples.

Results

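The 10 genes described here encode β-catenin, the complex that marks it for destruction, and the transcription factors it works with: Ctnnb1, Apc, Axin1, Axin2, Gsk3b, Csnk1a1, Tcf7, Tcf7l1, Tcf7l2 and Lef1. They were taken by symbol from the gene list of the count tables, where all 10 of them stood once among 32285 genes. In the canonical Wnt pathway, the scaffold proteins Apc and Axin hold β-catenin while casein kinase 1α (Csnk1a1) and glycogen synthase kinase 3β (Gsk3b) phosphorylate it, and the marked protein is degraded. A Wnt signal stops this, so that β-catenin accumulates and joins DNA-bound factors of the TCF/LEF family (Tcf7, Tcf7l1, Tcf7l2, Lef1) at target genes, among them Axin2 in many tissues. Part of the β-catenin protein sits at cell junctions with cadherins. The pathway has been studied in the testis chiefly in spermatogonial stem and progenitor cells and in Sertoli cells. RNA levels, which are what was counted here, do not show how much protein is present or phosphorylated.

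The series asked how single testis cells differ between wildtype mice and mice with a conditional knockout of Tex10, a nuclear protein gene. The wildtype group held 2 libraries, each from 1 adult mouse, and the knockout group held 1 library of cells pooled from 2 adult mice. All mice carried the strain label C57BL/6N, and testis tissue was dissociated with collagenase IV. Which Cre line was used and which exons it removes is not given in the sources used here, so the cells in which the gene was lost are not known from them. Values of a gene are given in the order wildtype replicate 1, wildtype replicate 2, knockout library. They are unique molecular identifiers (UMIs) per 1000000 UMIs of a class of cells, written CPM. Since the 10x 3′ kit counts transcript ends, a level is comparable between classes for 1 gene and is not compared here between genes.

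Class names stand for groups of cells that resembled a type by marker genes. The 5 germ cell classes, in order of development, were spermatogonia, early spermatocytes, late spermatocytes, round spermatids and elongating spermatids. Peritubular myoid cells, the contractile cells around the tubules, were the somatic class with at least 50 cells in every library. The classes held between 88 and 1924 cells per library, and between 466356 and 34523813 UMIs. The knockout library was the deeper one, with 147783171 UMIs in 12918 deposited barcodes against 93418341 UMIs in 9967 and 96001773 UMIs in 10153. Each germ cell marker list and the myoid list summed to its highest level in the class it names. The clusters were named by these same lists, so this is no separate check of the names. Transcripts of elongating spermatids were found in every class, at 6456 to 7301 CPM in spermatogonia beside 2742 to 2898 CPM of spermatogonial markers, and at 11881 to 13480 CPM in round spermatids beside 10520 to 11508 CPM of their own. The myoid class also held stromal markers, at 3331 to 3600 CPM beside 21050 to 22988 CPM of its own. The protamine and transition protein transcripts Prm1, Prm2 and Tnp1 made 21.7% to 22.7% of UMIs in elongating spermatids and 0.704% to 1.09% in myoid cells, and 0.421% to 0.470% in spermatogonia. Such transcripts in cells that do not make them give the level that free RNA can reach, and its part in the lowest values below was not tested. Of the elongating clusters, 1 had 300, 478 and 16 cells and another had 20, 9 and 371, and of the members' calls on that class only that of Gsk3b was lost without this pair. Tex10 itself was at 143, 125 and 131 CPM in spermatogonia, 114, 109 and 106 CPM in early and 59.7, 58.2 and 50.7 CPM in late spermatocytes, 38.8, 34.8 and 25.6 CPM in round and 3.53, 3.17 and 2.42 CPM in elongating spermatids, and 28.2, 21.4 and 18.4 CPM in myoid cells. It was below both wildtype libraries in 5 of these 6 classes and in 12 of 14 steps of germ cell development described below, yet counts of the 3′ end need not see the deletion, so they do not check the label.

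The members fell into different stages of germ cell development. Apc, Axin2, Tcf7 and Tcf7l1 were at their highest germ cell level in spermatogonia, Ctnnb1 and Axin1 stayed high through early spermatocytes, Lef1 was a gene of late spermatocytes, and Gsk3b and Csnk1a1 were abundant in round spermatids. Neighbouring stages were compared in a single fit over the 6 classes and 3 libraries with library as a block, by edgeR's quasi-likelihood test with Benjamini-Hochberg adjustment over 19019 genes and a threshold of 0.05. The p-values rest on the spread between libraries within a class that remains after the block, and not on the full spread between mice. From spermatogonia to early spermatocytes 3 members rose and 6 fell, where 31.1% of all genes tested rose and 28.6% fell. From early to late spermatocytes 2 rose and 6 fell, against 35.0% and 36.6% of all genes. From late spermatocytes to round spermatids 3 rose and 7 fell, against 38.7% and 39.5%. From round to elongating spermatids 4 rose and 2 fell, against 29.8% and 41.0%, but this split turned with the scaling: by library size alone 1 rose and 6 fell, with 3 calls in the direction given here, and with size factors as DESeq2 computes them 6 rose and 1 fell. Between spermatogonia and myoid cells 4 were higher in myoid cells and 4 lower, against 26.1% and 27.2%. The median log2 fold change of the members was -0.49, -0.93, -2.14, 0.32 and 0.33 in these comparisons, and that of all genes 0.10, -0.15, -0.07, -0.29 and -0.02. More members fell than rose in the first 3 comparisons, and no test of the list as a whole was made.

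The scaling of the counts matters for the size of these changes. The cells carry very different amounts of RNA: UMIs per cell were 2.18 higher on the log2 scale in late than in early spermatocytes. The median of all genes with the trimmed-mean (TMM) scaling used for the test, given above, would by library size alone be -0.13, -0.86, -0.27, -1.70 and -0.11, so the choice matters most in the elongating comparison. Of all genes called, the share that rose was 52.0% in the first comparison (41.7% with the DESeq2 size factors), 48.9% from early to late spermatocytes (30.5% by library size and 38.9% with those factors), and 42.1% from round to elongating spermatids (16.7% and 57.3%). Counted as UMIs per cell, 4 members turned direction in late against early spermatocytes beyond those named below: Apc was at 0.11, Axin1 at 0.46, Axin2 at 0.84 and Tcf7l1 at 0.68 (log2). Statements below are about a gene's share of the RNA unless they say per cell.

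**Figure D1:**
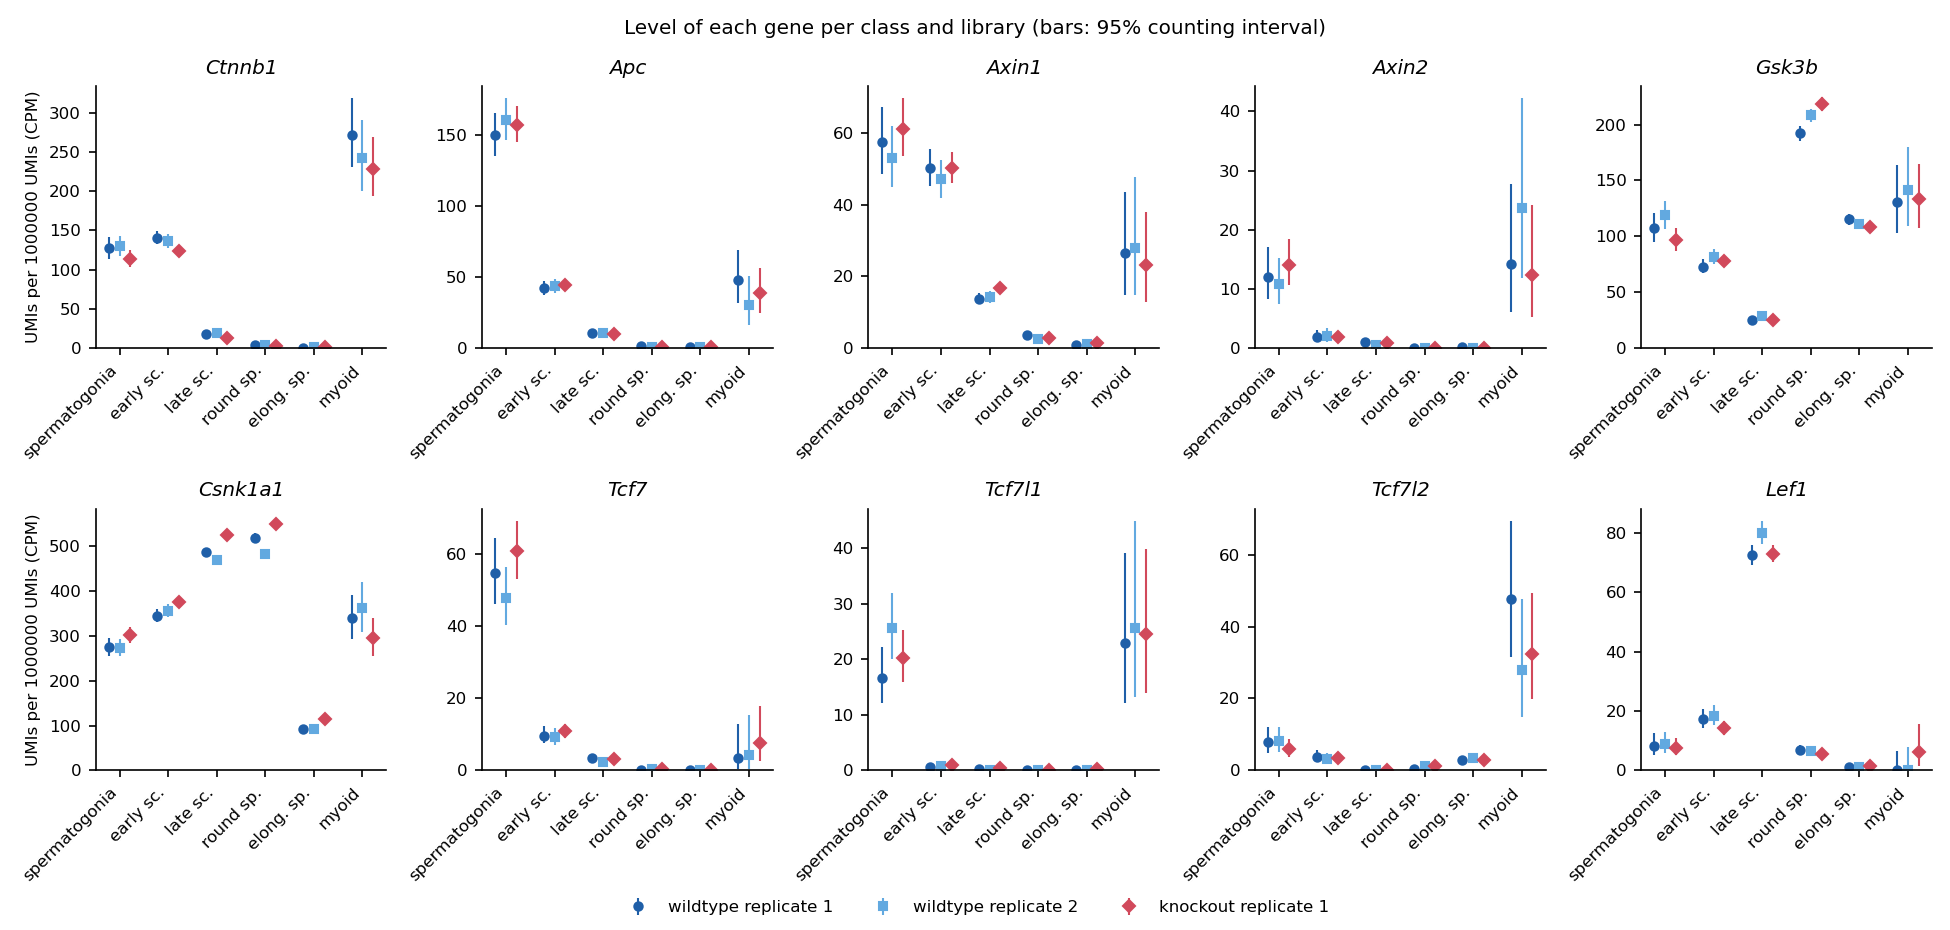
Level of each of the 10 genes (vertical axis, UMIs per 1000000 UMIs of the class, from 0) in 6 classes of cells (horizontal axis: sc., spermatocytes; sp., spermatids; elong., elongating). Each point is 1 library, in the colour and shape given under the panels, and the bars are exact 95% Poisson intervals that cover counting error only. Apc drops between spermatogonia and early spermatocytes and Ctnnb1 between early and late spermatocytes, Lef1 stands high in late spermatocytes alone at 72.5 to 80.1 CPM, and Gsk3b is lowest in late spermatocytes and highest in round spermatids.

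Ctnnb1 (chromosome 9, 120929216 to 120960507, plus strand, GRCm38), which encodes β-catenin, was a transcript of spermatogonia, early spermatocytes and somatic cells. Its level was 127, 129.7 and 114 CPM in spermatogonia and 141, 136 and 123 CPM in early spermatocytes. It was 17.8, 18.9 and 12.2 CPM in late spermatocytes, 3.56, 3.52 and 2.27 CPM in round spermatids and 0.405, 1.53 and 0.909 CPM in elongating spermatids. The 3 libraries of each later class lay wholly below those of the class before it, from early spermatocytes onward. The fall from early to late spermatocytes passed the test (log2 fold change -2.34, SE 0.11, edgeR adjusted p = 1.53e-24), as did the further fall to round spermatids (log2 fold change -2.17, SE 0.15, edgeR adjusted p = 2.82e-18). The rise from spermatogonia to early spermatocytes was small (log2 fold change 0.36, SE 0.11, edgeR adjusted p = 0.00302), and by library size alone it did not pass (log2 fold change 0.11, edgeR adjusted p = 0.373). From round to elongating spermatids the log2 fold change was -0.15 (SE 0.25, edgeR adjusted p = 0.621), and -1.64 by library size alone (edgeR adjusted p = 6.52e-08). In myoid cells Ctnnb1 reached 272, 242 and 229 CPM, above every germ cell class in all 3 libraries (log2 fold change 1.11, SE 0.13, edgeR adjusted p = 8.43e-10). Myoid cells hold less RNA, and per cell the log2 difference from spermatogonia was 0.

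The fall of Ctnnb1 could be followed in finer detail along 14 ordered steps, each made of 1 cluster of germ cells except the last, which holds all elongating clusters. Within a class, clusters were ordered from those more like the class before to those more like the class after, by correlation over genes of at least 20 CPM in some germ cell cluster, members included. Diffusion pseudotime gave another order: its median rose from step 1 to step 8, but it was 0.873, 0.910, 0.906, 0.826 and 0.579 in steps 9 to 13 and 0.380 to 0.443 in the elongating clusters, so the order of the spermatid steps rests on the class names and this likeness alone. The mean over the 3 libraries was 123 CPM in step 1 (spermatogonia) and 106 CPM in step 2, whose leading genes include Stra8 and Prdm9, genes of meiotic entry. It was highest in step 4 at 182, 179 and 154 CPM, still 116, 119.5 and 96.7 CPM in step 5, 51.7, 43.3 and 31.3 CPM in step 6, which Piwil1 leads, and 9.13, 8.94 and 7.79 CPM in step 7. Each library had its highest value in step 4. From step 8 on, all libraries were at or below 4.44 CPM. The gene on the opposite strand at the 3′ end of Ctnnb1, Ulk4, overlaps its last 5157 bases, and the counting step is not stated to use strand. Ulk4 had another profile, at 20.01, 20.2 and 21.8 CPM in spermatogonia and 65.2, 64.9 and 58.9 CPM in late spermatocytes, where Ctnnb1 was low. A non-coding gene, 4930593C16Rik, overlaps 1589 bases at the other end of Ctnnb1.

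**Figure D2:**
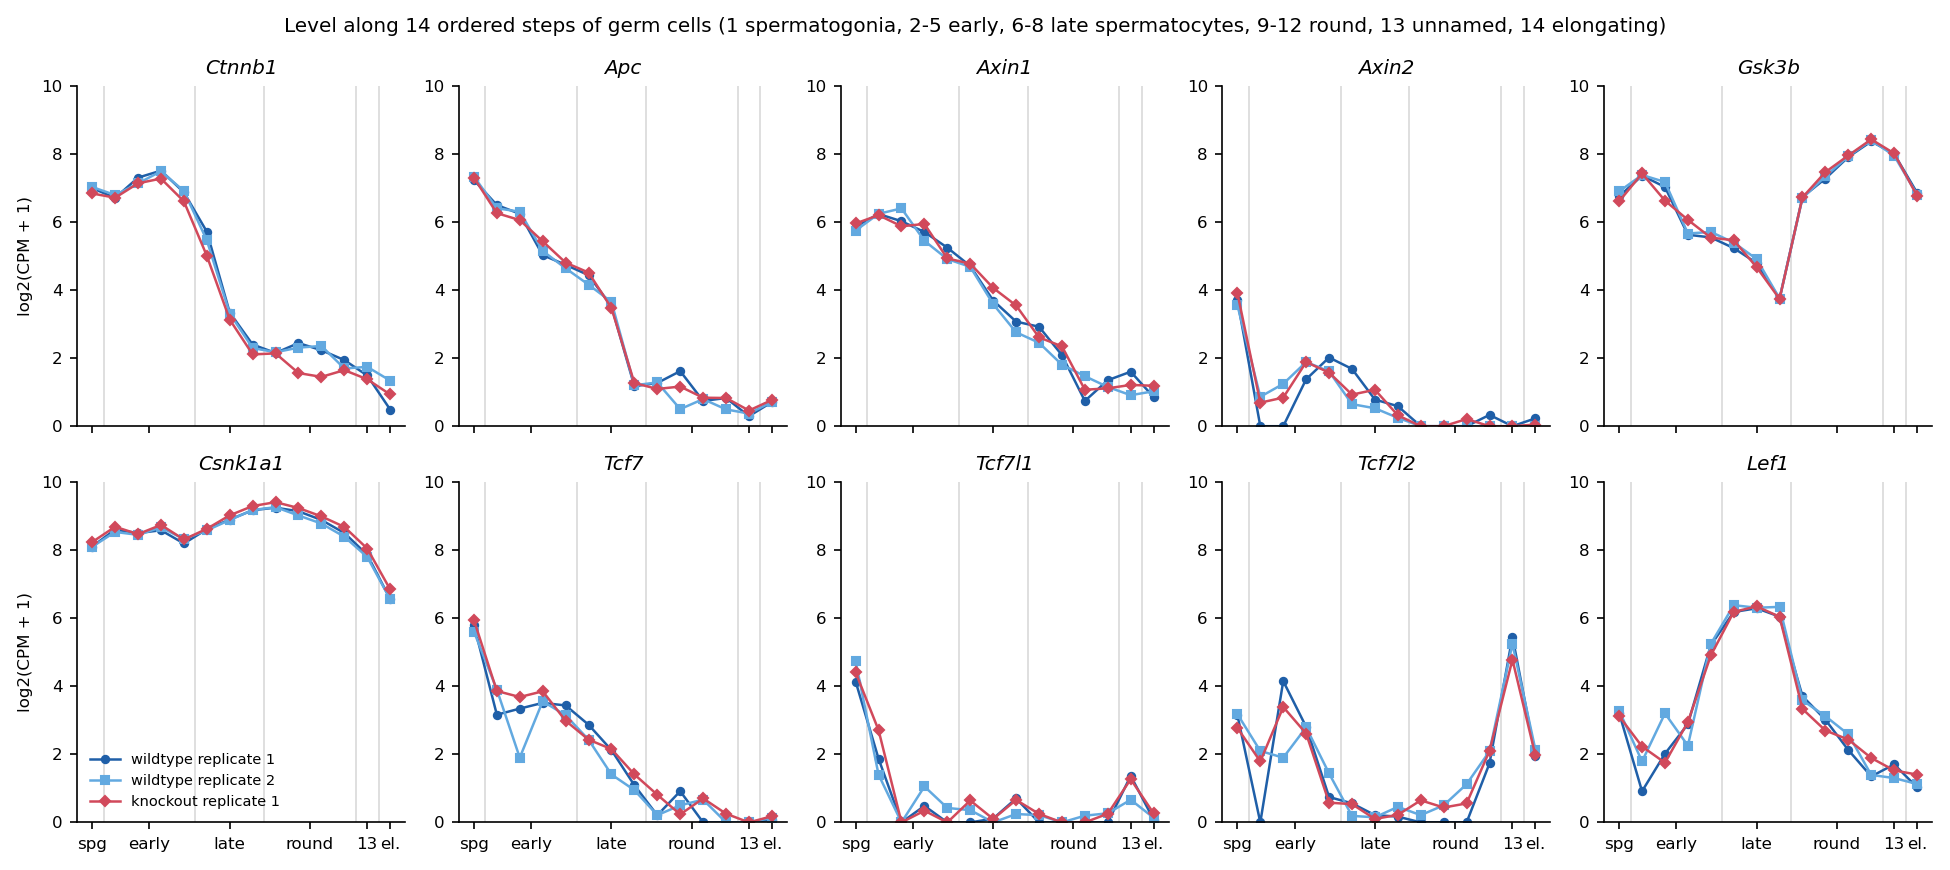
Level of each gene as log2(CPM + 1) (vertical axis) along 14 ordered steps of germ cells (horizontal axis), with 1 line per library and grey lines between classes. All libraries place the Ctnnb1 maximum at step 4, the Gsk3b minimum at step 8 and maximum at step 12, the Csnk1a1 maximum at step 9 and the Tcf7l2 maximum at step 13.

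The scaffold genes were lower in round spermatids than in late spermatocytes too, and each had its own timing before that stage. Apc (chromosome 18, 34220924 to 34322552, plus strand), the large scaffold whose loss stabilises β-catenin in intestinal tumours, was at 149.9, 161 and 157 CPM in spermatogonia, 42.2, 43.6 and 44.4 CPM in early spermatocytes, 10.2, 10.8 and 10.1 CPM in late spermatocytes, 1.27, 0.792 and 0.982 CPM in round spermatids and 0.637, 0.643 and 0.707 CPM in elongating spermatids. Every library of spermatogonia was above every library of the other classes, myoid cells included (47.6, 30.02 and 38.4 CPM). Apc fell at the first transition (log2 fold change -1.60, SE 0.10, edgeR adjusted p = 2.09e-19), and fell again into late spermatocytes (log2 fold change -1.36, SE 0.10, edgeR adjusted p = 1.35e-16) and into round spermatids (log2 fold change -3.16, SE 0.16, edgeR adjusted p = 1.35e-22). In elongating spermatids, where it rested on 11, 13 and 21 UMIs, its call turned with the scaling: the log2 fold change was 0.93 (edgeR adjusted p = 0.00369) and -0.56 by library size alone (edgeR adjusted p = 0.0582). Along the steps the mean went from 156.0 CPM in step 1 to 83.0 in step 2, 36.2 in step 4 and 10.7 in step 7.

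Axin1 (chromosome 17, 26138688 to 26195811, plus strand), the scaffold found in most tissues, was at a similar level in spermatogonia (57.4, 52.9 and 61.2 CPM) and early spermatocytes (50.2, 47.0 and 50.3 CPM). The libraries did not overlap, yet the difference did not pass the test (log2 fold change 0.03, SE 0.12, edgeR adjusted p = 0.857). It was 13.7, 14.20 and 16.7 CPM in late spermatocytes, 3.68, 2.55 and 2.81 CPM in round and 0.810, 1.04 and 1.28 CPM in elongating spermatids, and 26.5, 27.9 and 23.0 CPM in myoid cells. The falls into late spermatocytes (log2 fold change -1.01, SE 0.11, edgeR adjusted p = 9.84e-12) and into round spermatids (log2 fold change -2.11, SE 0.14, edgeR adjusted p = 4.30e-19) passed, and so did the lower level in myoid cells than in spermatogonia (log2 fold change -1.07, SE 0.22, edgeR adjusted p = 6.04e-05). From round to elongating spermatids the log2 fold change was 0.04 (edgeR adjusted p = 0.898), and by library size alone -1.46 (edgeR adjusted p = 2.65e-08).

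Axin2 (chromosome 11, 108920349 to 108950783, plus strand), the scaffold that is also a textbook target of the pathway, was low. Among the 6 classes compared it was nearly limited to spermatogonia and myoid cells. Its UMIs numbered 32, 32 and 53 in spermatogonia, or 12.1, 10.8 and 14.1 CPM, and 8, 11 and 8 in myoid cells, or 14.1, 23.6 and 12.3 CPM. In early spermatocytes it was at 1.80, 1.94 and 1.88 CPM, in late spermatocytes at 1.01, 0.419 and 0.753 CPM, and round spermatids held 1, 0 and 1 UMIs in all. The spermatogonial and early spermatocyte libraries did not overlap, and the fall passed the test (log2 fold change -2.48, SE 0.31, edgeR adjusted p = 2.19e-09). The next difference, into late spermatocytes, did not (log2 fold change -0.63, SE 0.35, edgeR adjusted p = 0.106), though it did by library size alone (log2 fold change -1.34, edgeR adjusted p = 9.97e-04). The spermatogonial and myoid ranges overlapped (log2 fold change 0.47, SE 0.39, edgeR adjusted p = 0.319).

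The 2 kinases behaved differently from the scaffolds and from each other. Gsk3b (chromosome 16, 38089001 to 38246084, plus strand), which encodes the kinase that completes the phosphorylation of β-catenin and has many other substrates, was at 107, 119 and 96.6 CPM in spermatogonia, 72.8, 81.7 and 78.1 CPM in early spermatocytes, 24.9, 28.9 and 25.1 CPM in late spermatocytes, 192, 208 and 218 CPM in round spermatids and 115, 111 and 108 CPM in elongating spermatids. Late spermatocytes were lowest in every library, and round spermatids were highest. The fall into late spermatocytes (log2 fold change -0.85, SE 0.08, edgeR adjusted p = 1.18e-12) and the rise into round spermatids (log2 fold change 3.18, SE 0.08, edgeR adjusted p = 9.03e-35) passed the test. Counted per cell, where late spermatocytes have far more RNA, the first of these was 0.62 and the second 2.00 (log2), so the rise was seen on both scales and the fall was not. The levels of spermatogonia and early spermatocytes did not overlap either. The small fall from spermatogonia to early spermatocytes (log2 fold change -0.22, SE 0.09, edgeR adjusted p = 0.0331) was lost without wildtype replicate 1 (edgeR adjusted p = 0.161) or without wildtype replicate 2 (edgeR adjusted p = 0.557).

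Along the steps Gsk3b traced a valley and a peak. Its mean was 107 CPM in step 1, 167 in step 2, 54.7 in step 4, 26.8 in step 7 and 12.4 in step 8, the last of the late spermatocytes. In step 9, the first round spermatid step, it was 106, 103 and 105 CPM, in step 11 240.1, 244 and 248 CPM and in step 12 330.3, 339 and 344 CPM. The libraries differed little at each of these steps and did not overlap between them. In step 13, a cluster without a name that had round spermatid markers highest, it was 256, 246 and 258 CPM. The change from round to elongating spermatids depended on how it was counted: the log2 fold change was 0.61 (SE 0.07, edgeR adjusted p = 4.82e-10) with TMM scaling, -0.89 by library size alone (edgeR adjusted p = 5.13e-14) and -2.09 per cell. Without the pair of elongating clusters that came mostly from 1 group it was 0.02 (edgeR adjusted p = 0.799). Within the elongating class the clusters ranged from 11.1 to 201 CPM in wildtype replicate 1.

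Csnk1a1 (chromosome 18, 61555274 to 61590061, plus strand), which encodes the priming kinase of β-catenin, was present in every class. It was at 275, 274 and 301 CPM in spermatogonia, 346, 356 and 375 CPM in early and 487, 470.4 and 526 CPM in late spermatocytes, 518, 482 and 551 CPM in round spermatids and 93.7, 93.4 and 114 CPM in elongating spermatids. It rose into early (log2 fold change 0.59, SE 0.08, edgeR adjusted p = 1.65e-08) and late spermatocytes (log2 fold change 1.18, SE 0.08, edgeR adjusted p = 1.38e-18) and fell into elongating spermatids (log2 fold change -0.86, SE 0.08, edgeR adjusted p = 4.86e-14). The late spermatocyte and round spermatid libraries overlapped, and the small rise between them (log2 fold change 0.27, edgeR adjusted p = 0.00105) was not called by library size alone (0.07, edgeR adjusted p = 0.381). Each library had its maximum in step 9, at 609, 615 and 681 CPM. In myoid cells the level was 340.5, 362 and 295 CPM, and the difference from spermatogonia (log2 fold change 0.32, SE 0.10, edgeR adjusted p = 0.00535) was lost without wildtype replicate 1 (edgeR adjusted p = 0.0564) and without wildtype replicate 2 (edgeR adjusted p = 0.284). Per cell that difference was -0.79 (log2), and the rise from late spermatocytes to round spermatids was -0.91. Gsk3b in myoid cells was 131, 142 and 134 CPM (log2 fold change 0.44, SE 0.13, edgeR adjusted p = 0.00252), and -0.67 per cell. Barcodes with few UMIs, kept out of the classes, held Csnk1a1 at 327, 355 and 415 CPM and Gsk3b at 137, 125 and 109 CPM, so both are also among the RNA of the poorest droplets.

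**Figure D3:**
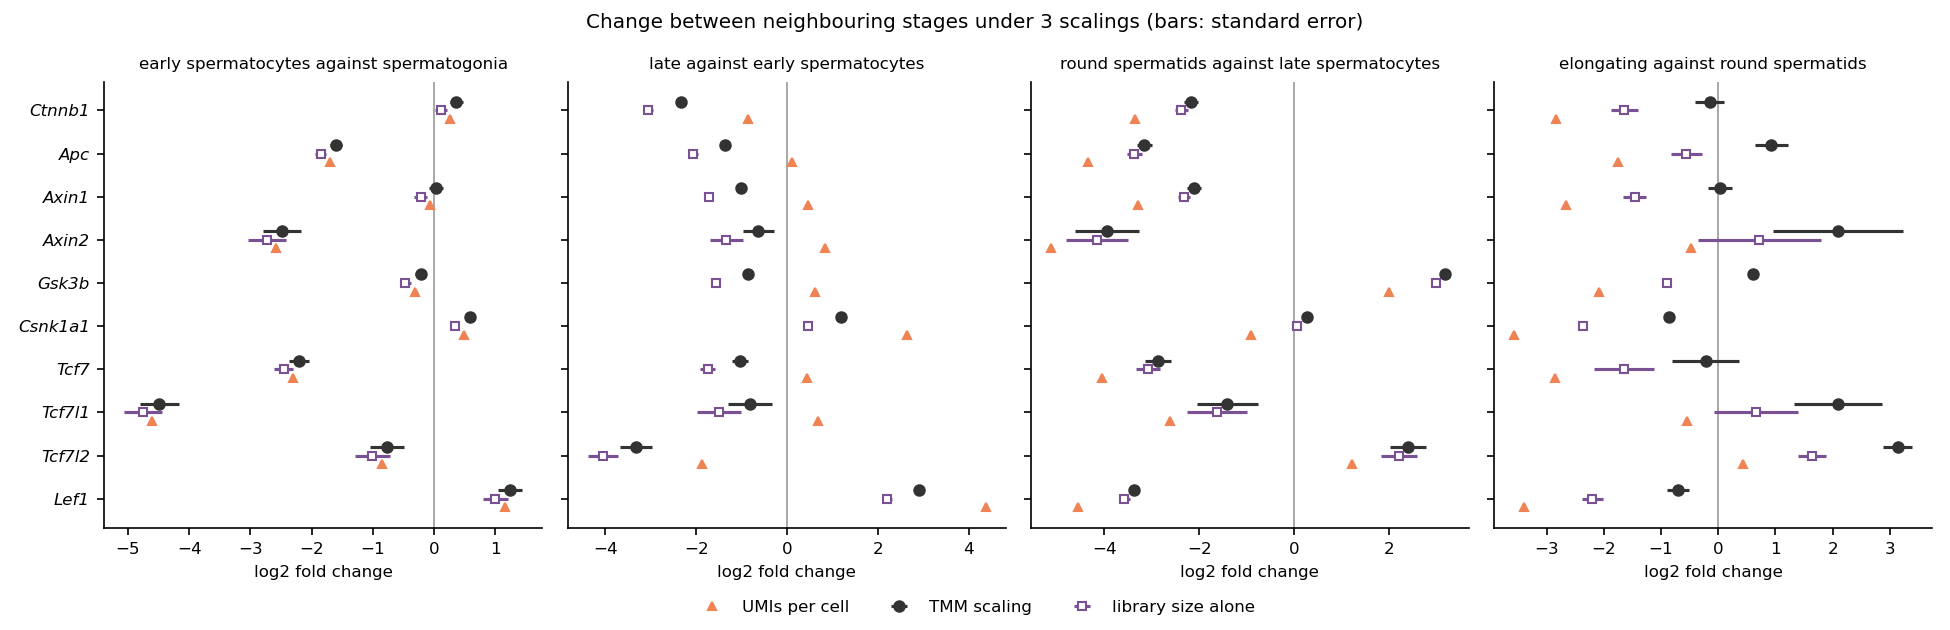
Log2 fold change of each gene (horizontal axis) between neighbouring germ cell stages, with TMM scaling (filled circles) and library size alone (open squares), each with its standard error, and as UMIs per cell (triangles, no error). The largest shift between scalings is in the elongating comparison, where Apc, Axin1 and Gsk3b are above 0 with TMM scaling and below 0 by library size.

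Among the TCF/LEF genes, Tcf7 and Tcf7l1 were highest among the steps in step 1, spermatogonia, Tcf7l2 in step 13 and Lef1, as a mean over the libraries, in step 7. Tcf7 (chromosome 11, 52252371 to 52283014, minus strand), the factor first known from T cells, was at 54.8, 47.8 and 60.7 CPM in spermatogonia and 9.69, 9.23 and 10.8 CPM in early spermatocytes, then 3.402, 2.38 and 3.07 CPM in late spermatocytes and 0.241, 0.308 and 0.446 CPM in round spermatids. Every spermatogonial library was above every library of the other classes, and the fall into early spermatocytes passed the test (log2 fold change -2.21, SE 0.16, edgeR adjusted p = 5.63e-17). It also fell into late spermatocytes (log2 fold change -1.04, SE 0.17, edgeR adjusted p = 5.61e-07; 0.43 per cell) and round spermatids (log2 fold change -2.87, SE 0.27, edgeR adjusted p = 2.45e-13), and it was lower in myoid cells than in spermatogonia (log2 fold change -3.26, SE 0.34, edgeR adjusted p = 2.13e-11), where it rested on 2, 2 and 5 UMIs.

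Tcf7l1 (chromosome 6, 72626378 to 72789254, minus strand) is known chiefly as a repressor that keeps target genes silent. Among the 6 classes compared it was found chiefly in spermatogonia (16.6, 25.6 and 20.2 CPM) and myoid cells (22.9, 25.7 and 24.6 CPM). These ranges overlapped and the difference did not pass the test (log2 fold change 0.34, SE 0.31, edgeR adjusted p = 0.373). In early spermatocytes it was at 0.553, 0.744 and 0.940 CPM, on 4, 5 and 10 UMIs, with no overlap with spermatogonia (log2 fold change -4.49, SE 0.32, edgeR adjusted p = 6.00e-17). The later germ cell classes held 13 UMIs or fewer in each library, where the limit of 3 UMIs is 0.112 CPM in late spermatocytes of wildtype replicate 1. The called difference from late spermatocytes to round spermatids rested on 6, 3 and 13 against 0, 3 and 2 UMIs and turned sign under the stricter cell filter. The called rise into elongating spermatids rested on 1, 2 and 6 UMIs and did not pass by library size alone (edgeR adjusted p = 0.422).

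Tcf7l2 (chromosome 19, 55741820 to 55933654, plus strand), the main TCF factor of the intestine, had its highest class level in myoid cells (47.6, 27.9 and 32.2 CPM, against 7.93, 8.09 and 5.86 CPM in spermatogonia). The libraries did not overlap and the difference passed the test (log2 fold change 2.43, SE 0.31, edgeR adjusted p = 3.11e-09). In germ cells it was at 3.87, 3.27 and 3.48 CPM in early spermatocytes, 0.224, 0.186 and 0.203 CPM in late spermatocytes, 0.543, 1.19 and 1.11 CPM in round spermatids and 2.89, 3.41 and 2.93 CPM in elongating spermatids. Its lower level in early spermatocytes than in spermatogonia (log2 fold change -0.77, SE 0.28, edgeR adjusted p = 0.0174) was lost without wildtype replicate 1 (edgeR adjusted p = 0.0535) or wildtype replicate 2 (edgeR adjusted p = 0.204). It fell into late spermatocytes (log2 fold change -3.33, SE 0.35, edgeR adjusted p = 1.04e-11) and rose into round (log2 fold change 2.40, SE 0.38, edgeR adjusted p = 2.12e-07) and again into elongating spermatids (log2 fold change 3.14, SE 0.25, edgeR adjusted p = 6.66e-16), the last also by library size alone (log2 fold change 1.64, edgeR adjusted p = 1.42e-07). The class values hide a narrow peak. In step 13, between the round and elongating classes and led by Hemgn and Fam71b, Tcf7l2 reached 43.0, 37.0 and 26.6 CPM, on 190, 126 and 282 UMIs. The step before held 2.33, 3.26 and 3.30 CPM, and among the elongating clusters that follow, 1 was at 8.30, 11.2 and 8.55 CPM. No other germ cell step of any library was above 16.8 CPM. The cluster was part of no named class, so this peak lies outside the tests between stages.

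Lef1 (chromosome 3, 131110471 to 131224356, plus strand), the factor that binds the same sites as the TCFs and bends DNA, had a pattern of its own. It was at 8.31, 8.76 and 7.72 CPM in spermatogonia, 17.3, 18.5 and 14.20 CPM in early spermatocytes, 72.5, 80.1 and 72.9 CPM in late spermatocytes, 7.05, 6.51 and 5.40 CPM in round spermatids and 1.04, 1.19 and 1.65 CPM in elongating spermatids. The late spermatocyte libraries stood far above all others. The rise into late spermatocytes (log2 fold change 2.90, SE 0.11, edgeR adjusted p = 4.54e-27) and the fall into round spermatids (log2 fold change -3.37, SE 0.11, edgeR adjusted p = 5.20e-30) passed the test. The rise from spermatogonia to early spermatocytes (log2 fold change 1.24, SE 0.20, edgeR adjusted p = 4.29e-07) was not stable to the choice of cells, being -0.78 (edgeR adjusted p = 0.0171) when no doublets were left out. The further fall into elongating spermatids (log2 fold change -0.70, SE 0.19, edgeR adjusted p = 0.00123) was lost without wildtype replicate 2 (edgeR adjusted p = 0.230). Along the steps it was 6.41, 3.78 and 6.73 CPM in step 4, 36.0, 37.0 and 29.0 CPM in step 5, 71.8, 82.6 and 71.9 CPM in step 6, 77.5, 78.3 and 80.6 CPM in step 7, 65.2, 79.8 and 65.1 CPM in step 8 and 12.1, 11.0 and 9.09 CPM in step 9. Over steps 6 to 8, where Lef1 was high, the mean of Ctnnb1 went from 42.1 CPM to 3.84 CPM and that of Gsk3b from 40.4 CPM to 12.4 CPM. Myoid cells held 0, 0 and 4 UMIs, and the difference from spermatogonia (edgeR adjusted p = 0.0305) was lost without wildtype replicate 1 (edgeR adjusted p = 0.209) and without wildtype replicate 2 (edgeR adjusted p = 0.169).

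The antisense gene Lef1os1 overlaps the first 1620 bases of Lef1 on the opposite strand, 112266 bases from the 3′ end of Lef1 where the kit counts. It too was high in late spermatocytes, at 184, 158 and 191 CPM, and at 6.80, 8.76 and 9.05 CPM in spermatogonia. Its maximum came later, with 73.4, 69.1 and 79.5 CPM in step 6, 208, 187 and 202 CPM in step 7 and 234, 225 and 261 CPM in step 8. Since strand use is not stated, the split of reads between overlapping genes is uncertain, although the counted ends of this pair are far apart.

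Upstream windows of Lef1 and Tcf7l2 are shown, each the 250 bases before an annotated RefSeq start (GRCm38.p6, 5′ to 3′ on the gene's strand). The first lies before the outermost Lef1 start, at chr3:131110047-131110296 on the plus strand within the span of Lef1os1, and is shown because both genes are high in late spermatocytes. The others, before inner starts of Lef1 (chr3:131156044-131156293, plus strand) and Tcf7l2 (chr19:55895071-55895320, plus strand), are shown because they were the only member windows with a TCF/LEF core, which is in capitals.
Lef1 outermost start: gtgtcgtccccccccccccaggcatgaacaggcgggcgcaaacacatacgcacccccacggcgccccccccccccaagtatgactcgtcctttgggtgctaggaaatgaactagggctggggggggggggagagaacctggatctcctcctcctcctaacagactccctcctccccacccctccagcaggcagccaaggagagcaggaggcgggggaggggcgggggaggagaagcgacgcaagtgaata
Lef1 inner start: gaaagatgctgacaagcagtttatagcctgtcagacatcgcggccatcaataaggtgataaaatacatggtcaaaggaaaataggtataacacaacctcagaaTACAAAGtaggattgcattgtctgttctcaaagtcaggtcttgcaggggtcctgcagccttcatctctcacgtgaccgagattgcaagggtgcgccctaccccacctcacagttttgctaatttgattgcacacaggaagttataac
Tcf7l2 inner start: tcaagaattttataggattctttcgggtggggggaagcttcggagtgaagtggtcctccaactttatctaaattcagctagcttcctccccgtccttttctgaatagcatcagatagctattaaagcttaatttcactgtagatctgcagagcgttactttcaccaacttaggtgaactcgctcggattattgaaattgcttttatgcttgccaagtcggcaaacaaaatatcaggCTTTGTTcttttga
The search looked on both strands for the motif CTTTGAA, the motif CTTTGAT, the motif CTTTGTA and the motif CTTTGTT in windows from 250 bases before to 50 after a start. Of the 13 member windows read, 2 held a match, and 16.88% of all 32851 promoter windows did. The match began 147 bases before the inner Lef1 start and 14 bases before the inner Tcf7l2 start. A match is a description of the sequence, and 3′ counts do not tell which start a transcript used.

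Within spermatogonia, 6 sub-clusters showed that the TCF/LEF genes and Axin2 were not spread evenly. Sub-cluster 4, of 85 cells, was led by Sdc4, Ccnd2, Egr4, Foxf1 and Upp1, with Nanos3 in its first 10, a gene of undifferentiated spermatogonia. There Tcf7 was 95.4, 80.0 and 82.7 CPM, against 29.4, 21.6 and 29.97 CPM in sub-cluster 3, which Prss50 led and where Rec8, a meiotic cohesin, was among the first 10. In sub-cluster 4 Lef1 was 35.1, 21.6 and 10.8 CPM and Tcf7l2 20.1, 23.8 and 12.6 CPM. In each library Tcf7l2 was highest there, and Lef1 was highest there in both wildtype libraries. Tcf7l1 was highest elsewhere, at 27.7, 67.4 and 31.5 CPM in sub-cluster 5, led by the mitotic genes Nusap1, Ube2c and Cdk1, and 42.2, 48.7 and 66.1 CPM in sub-cluster 6. Ctnnb1 was also highest in sub-cluster 5 in every library, at 214, 163 and 178 CPM. Axin2 was 35.1, 12.97 and 10.8 CPM in sub-cluster 4, 11.5, 17.6 and 24.3 CPM in sub-cluster 2 and 2.67, 2.40 and 2.72 CPM in sub-cluster 3, where each library held 1 UMI. These values rest on few counts, from 6 to 14 UMIs for Axin2 and Lef1 in sub-cluster 4, and the sub-clusters were made from these same cells, so no test is given.

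**Figure D4:**
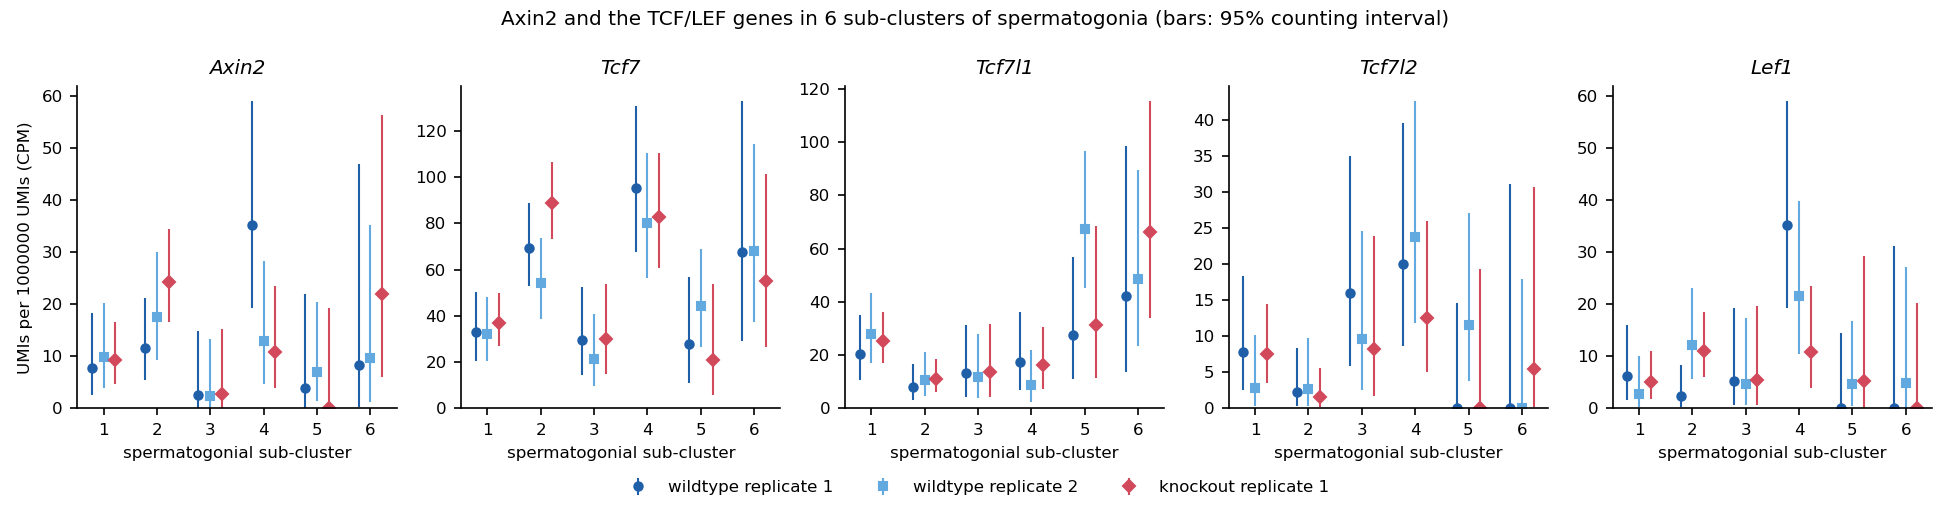
Level in UMIs per 1000000 UMIs (vertical axes, from 0) of Axin2, Tcf7, Tcf7l1, Tcf7l2 and Lef1 in the 6 sub-clusters of spermatogonia (horizontal axes), with 1 point per library and exact 95% Poisson intervals that cover counting error only. Tcf7 is high in sub-clusters 2, 4 and 6, Tcf7l1 in 5 and 6, and the wide intervals show how few UMIs lie behind the smaller values.

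Outside the low-UMI clusters, somatic cells beyond the myoid class were few. Sertoli cells, the nurse cells of the germ line, numbered 22, 14 and 51 in the libraries, and their values are given without comparison. A further 791, 513 and 1148 barcodes in clusters of low UMI totals carried Sertoli markers and were kept out of this class. In the Sertoli class Ctnnb1 was 164, 166 and 147 CPM, Apc 90.9, 68.2 and 107 CPM and Axin1 68.2, 34.1 and 49.5 CPM. Gsk3b was 146, 175 and 132 CPM and Csnk1a1 273, 264 and 282 CPM. Tcf7l2 was 17.7, 34.1 and 21.1 CPM, on 7, 8 and 29 UMIs, and Lef1 and Tcf7 rested on 7 UMIs or fewer in each library. The low-UMI Sertoli barcodes had other levels, with Ctnnb1 at 32.4, 39.2 and 26.9 CPM, Apc at 6.23, 12.51 and 10.2 CPM, Axin1 at 13.1, 20.9 and 13.4 CPM and Tcf7l2 at 4.36, 10.0 and 6.72 CPM. Gsk3b, at 125, 118 and 97.6 CPM, and Csnk1a1, at 305, 322 and 308 CPM, lay nearer to the Sertoli class. No test was made between them. Beside the myoid values above stand stromal markers at 3331 to 3600 CPM, macrophage markers at 789 to 1124 CPM and Sertoli markers at 944 to 1054 CPM in that class, with all 10 stromal markers detected, 5 of 12 macrophage markers at 0 and 2 of 16 Sertoli markers at 0. Their part in the myoid levels was not tested.

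Genes of the wider pathway were read from 3 lists: 36 partners and regulators of the destruction complex, 35 nuclear cofactors and partners of β-catenin, and 25 textbook Wnt targets, of which 20 were tested. From spermatogonia to early spermatocytes the partners had 13 higher and 17 lower, the cofactors 16 and 16, and the targets 1 and 10, where 31.1% of all genes were higher and 28.6% lower. The median log2 fold change of the targets was -1.28, beside 0.10 for all genes. Among the partners Csnk1e, a second casein kinase 1, went from 116, 99.7 and 111 CPM to 1.94, 5.06 and 3.38 CPM (log2 fold change -4.74, SE 0.19, edgeR adjusted p = 9.07e-26), and Siah1a, a ubiquitin ligase, from 13.2, 11.8 and 10.7 to 77.6, 77.1 and 73.5 CPM (log2 fold change 2.94, SE 0.13, edgeR adjusted p = 4.16e-24). Of the targets, the cyclin gene Ccnd2 went from 65.0, 47.2 and 45.5 CPM to 0, 0.447 and 0.0940 CPM (log2 fold change -7.93, SE 0.33, edgeR adjusted p = 3.11e-25), on 3 UMIs or fewer in each early spermatocyte library, so that the fitted fold change is no bound.

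From early to late spermatocytes 12 partners rose and 18 fell, 8 cofactors rose and 21 fell, and 4 targets rose and 6 fell, beside 35.0% and 36.6% of all genes. The cofactors' median was -1.02, beside -0.15 for all genes. Bcl9, the adaptor that brings Pygopus to β-catenin, fell from 22.7, 23.1 and 29.9 to 0.0374, 0.372 and 0.695 CPM (log2 fold change -5.29, SE 0.24, edgeR adjusted p = 1.88e-24). Med12, a Mediator subunit on the X chromosome, fell from 16.3, 18.8 and 19.4 to 0.149, 0.0931 and 0.232 CPM (log2 fold change -5.98, SE 0.27, edgeR adjusted p = 8.22e-25). Cdh2, or N-cadherin, which binds β-catenin at junctions, rose from 4.84, 6.85 and 7.99 to 48.8, 42.6 and 48.8 CPM (log2 fold change 3.52, SE 0.15, edgeR adjusted p = 1.01e-25).

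From late spermatocytes to round spermatids 14 partners rose and 15 fell, 7 cofactors rose and 19 fell, and 3 targets rose and 6 fell, beside 38.7% and 39.5% of all genes. The partners were near that background. Amer2, a membrane-bound Apc partner, rose from 2.21, 2.23 and 2.14 to 108, 119 and 148 CPM (log2 fold change 6.04, SE 0.14, edgeR adjusted p = 4.14e-37), and Dvl2, a Dishevelled gene, fell from 16.8, 18.4 and 17.1 to 2.17, 1.80 and 2.05 CPM (log2 fold change -2.91, SE 0.15, edgeR adjusted p = 1.04e-22). From round to elongating spermatids 14 partners rose and 16 fell, 10 cofactors rose and 18 fell, and 3 targets rose and 3 fell, beside 29.8% and 41.0% of all genes. The split of these lists was not computed under other scalings, which move the share of all calls that rose in this comparison from 42.1% to 16.7% or 57.3%. Csnk1g2, a casein kinase 1γ, rose from 147, 160.3 and 160.2 to 1138, 1155 and 1132 CPM (log2 fold change 4.37, SE 0.08, edgeR adjusted p = 6.60e-40). Tle3, a Groucho corepressor of TCF factors, rose from 8.44, 9.59 and 9.64 to 51.0, 49.7 and 47.7 CPM (log2 fold change 3.92, SE 0.10, edgeR adjusted p = 6.11e-34). Gsk3a, the paralog of Gsk3b, fell from 22.6, 22.2 and 24.4 to 0.868, 1.43 and 1.28 CPM (log2 fold change -2.74, SE 0.15, edgeR adjusted p = 1.52e-21), while Btrc, the ubiquitin ligase subunit that recognises phosphorylated β-catenin, fell from 69.2, 64.6 and 57.6 to 3.18, 3.86 and 3.94 CPM (log2 fold change -2.60, SE 0.11, edgeR adjusted p = 7.14e-26).

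Between spermatogonia and myoid cells 12 partners were higher in myoid cells and 13 lower, 4 cofactors were higher and 18 lower, and 10 targets were higher and 5 lower, beside 26.1% and 27.2% of all genes. The median log2 fold change was 0.56 for the targets, -0.65 for the cofactors and -0.34 for the partners, beside -0.02 for all genes. Jun stood at 1634, 1415 and 1896 CPM in myoid cells and 9.44, 12.47 and 21.3 CPM in spermatogonia (log2 fold change 6.90, SE 0.14, edgeR adjusted p = 2.03e-38), and the Dishevelled antagonist Dact3 at 258, 214 and 143 and 5.29, 4.38 and 4.79 CPM (log2 fold change 5.48, SE 0.22, edgeR adjusted p = 2.15e-26). In the other direction, Usp34 of the partners stood at 142.9, 132.9 and 110.5 CPM in myoid cells and 476.5, 518.9 and 585.9 CPM in spermatogonia (log2 fold change -1.94, SE 0.12, edgeR adjusted p = 1.50e-18). The target Ascl2 was at 39.3, 25.6 and 35.9 CPM in spermatogonia and at 0 in each myoid library.

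The genes most like each member across the 6 classes and 3 libraries were sought by Pearson's r of log2(CPM + 1) over these 18 values, among 11909 genes. The points share libraries and depth, and r describes this table. For Ctnnb1 they were Mrpl14 (r = 0.995), Per3 and Skil (both 0.993). For Apc they were Nol6 and Mrps24 (both 0.996), for Axin1 Kat6a and Dmxl1 (both 0.997), and for Tcf7 Arpp19 (0.988). For Axin2 they were Pip5k1c (0.992) and Pias3 (0.986), and for Tcf7l1 1110012L19Rik and Pxdn (both 0.995). Gsk3b was most like Actr2 (0.978), Csnk1a1 most like Cetn3 (0.987), Tcf7l2 most like Sumf1 (0.978) and Lef1 most like Dnajc28 (0.959). Between members, r was 0.967 for Apc and Axin1, 0.972 for Axin2 and Tcf7l1, 0.936 for Ctnnb1 and Axin1, and 0.957 for Apc and Tcf7. It was -0.759 for Lef1 and Gsk3b, -0.667 for Lef1 and Tcf7l2, and 0.052 for Lef1 and Ctnnb1.

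In the knockout library no member stood apart by a rule of size. The rule asked for at least a 2-fold difference, with 1 CPM added, from each wildtype library in the same direction, a log2 ratio 2 or more times as large as that seen from one wildtype library to the other, and at least 20 CPM in 1 library. With 1 knockout library no test across groups was made. The rule was met by 0 members in each of the 6 classes, where it was met by 0.352% of the genes with enough counts in spermatogonia, 0.247% in early and 0.670% in late spermatocytes, 1.15% in round and 1.41% in elongating spermatids, and 2.35% in myoid cells. No gene of the 3 pathway lists met it either. A gene under 20 CPM in all libraries of a class could not meet the rule there, whatever its ratio. Among the members, only Gsk3b, Csnk1a1 and Lef1 reached 20 CPM in late spermatocytes, and only Gsk3b and Csnk1a1 in round and elongating spermatids. Ctnnb1 was under this minimum in late spermatocytes. Lef1 in myoid cells, with 0, 0 and 4 UMIs, would meet the rule only without the minimum of 20 CPM. The rule leaves smaller differences unmarked. Hdac1 of the cofactor list was above both wildtype libraries in each of the 6 classes. Hdac1 was at 91.4, 81.9 and 156 CPM in spermatogonia and 96.3, 96.0 and 165 CPM in late spermatocytes. The share of all genes above both wildtype libraries in every class was not computed, and the reason for the Hdac1 difference was not tested.

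Also below the size of the rule, Ctnnb1 was lower in the knockout library than in both wildtype libraries in 5 of 6 classes and in 11 of 14 steps. The steps share cells with the classes, so these counts are not separate. In 1 of the 14 steps the knockout interval overlapped neither wildtype interval, and from step 7 on all libraries were under 20 CPM. The share of all genes with such counts was not computed, for Ctnnb1, for Tex10 above or for the genes below. The log2 ratios of Ctnnb1 to the wildtype libraries were -0.16 and -0.19 in spermatogonia, -0.19 and -0.15 in early spermatocytes, -0.50 and -0.59 in late spermatocytes, -0.48 and -0.46 for round spermatids, then -0.25 and -0.08 for myoid cells. The knockout library's counting interval lay below those of both wildtype libraries in late spermatocytes, at 11.1 to 13.5 CPM against 16.2 to 19.4 and 17.2 to 20.9 CPM. In step 6, where the level was already dropping, the values were 51.7, 43.3 and 31.3 CPM. The mean log2 ratio in late spermatocytes ran from -0.64 to -0.28 over 12 alternatives. The overlapping gene 4930593C16Rik was also lower there in the knockout library, at 17.8, 17.5 and 12.9 CPM, and its part in the Ctnnb1 value was not tested.

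Csnk1a1 was higher in the knockout library than in both wildtype libraries in 5 of 6 classes, myoid cells excepted, and in 12 of 14 steps. How many of all genes did the same was not computed. The differences were small, with log2 ratios of 0.11 and 0.16 (late spermatocytes), 0.09 and 0.19 (round) and 0.29 and 0.29 (elongating spermatids). The counting intervals did not overlap in these classes, for example 110.5 to 118 CPM against 89.1 to 98.3 and 89.3 to 97.7 CPM in elongating spermatids. They are narrow because the counts are high, at 8599, 10968 and 12351 UMIs in round spermatids. Without the pair of elongating clusters that came mostly from 1 group, the mean log2 ratio was 0.26 in place of 0.29. The wildtype libraries themselves differed by 0.10 (log2) in round spermatids, where their intervals of 508 to 529.6 and 473 to 491.5 CPM did not overlap.

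Tcf7l2 in step 13 was 43.0, 37.0 and 26.6 CPM, and the log2 ratios of the knockout library were -0.67 and -0.46, with an interval of 23.6 to 29.9 CPM that overlapped neither wildtype interval. Tcf7 was above both wildtype libraries in 5 of 6 classes, a count for which the share of all genes was not computed either. It was at 54.8, 47.8 and 60.7 CPM in spermatogonia, and on 10 UMIs or fewer in each library of spermatids and myoid cells. In late spermatocytes Lef1 and Gsk3b lay between the wildtype values. The interval bounds cover counting error alone, and how far 1 further knockout library would differ is not known from these data.

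**Figure D5:**
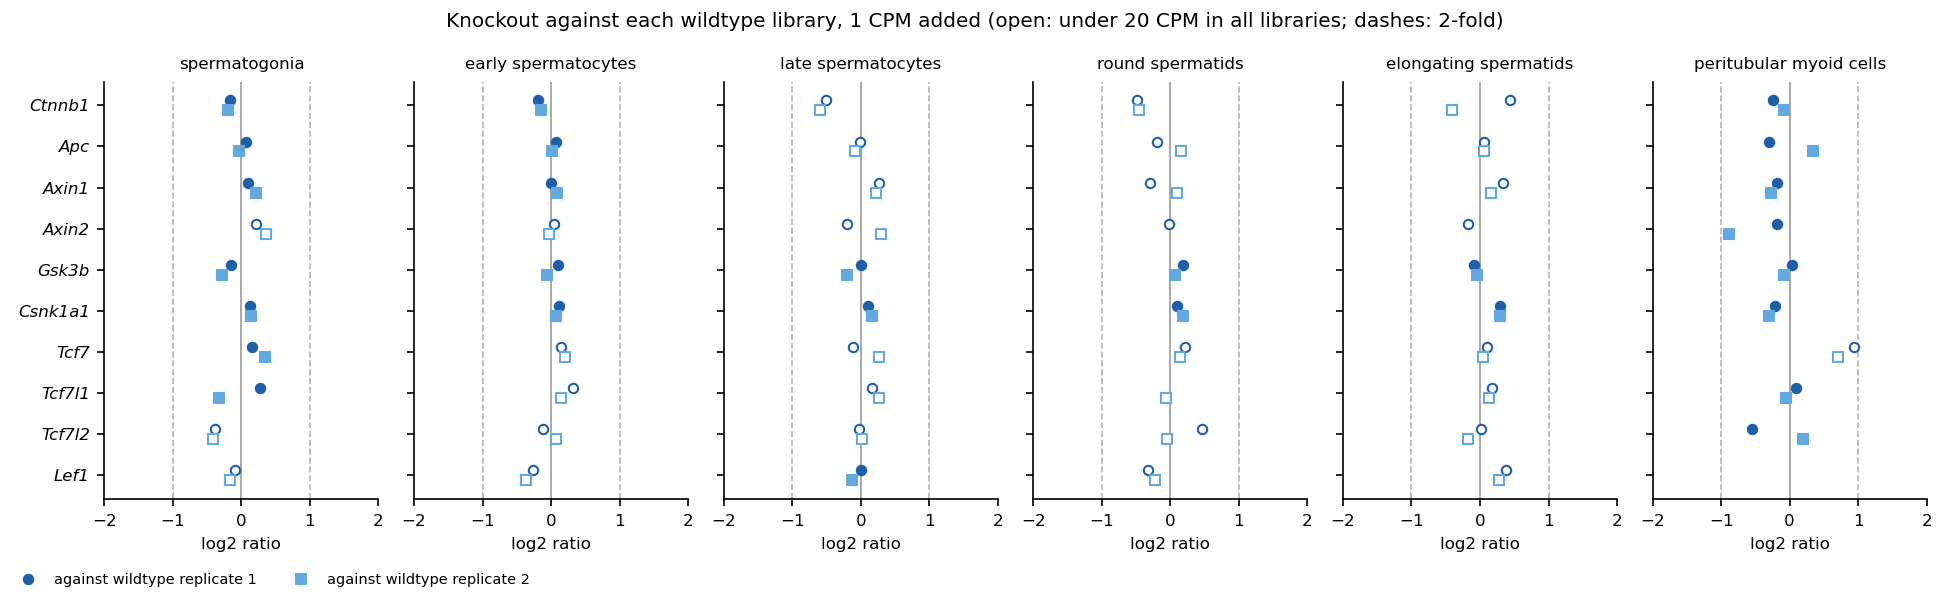
Log2 ratio of the knockout library to wildtype replicate 1 (circles) and wildtype replicate 2 (squares), with 1 CPM added (horizontal axis), for each gene in 6 classes. Open symbols mark genes under 20 CPM in all libraries, dashed lines mark a 2-fold difference, and no symbol is drawn where the wildtype library held no UMI of the gene. No symbol lies beyond a dashed line, and both Ctnnb1 symbols lie left of 0 in 5 panels.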

How the data were processed

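The 10x Genomics 3′ libraries (kit version 3.1, per the labels' protocols) came from 2 single wildtype mice and from 1 pool of 2 knockout mice. The deposited files hold raw UMI counts for each gene in each barcode. The submitters' processing notes name Cell Ranger 4.0.0, Seurat 4.0.5 and the build mm10; the annotation and any use of strand are not given in the sources used here. GENCODE M21 (GRCm38) held 32158 of the 32285 gene identifiers and gave the positions.

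Barcodes with at least 1000 UMIs and 500 genes and at most 10% mitochondrial UMIs were kept. Scrublet's automatic threshold marked 0, 1 and 0 barcodes, so the top 8% of its scores per library were left out, which left 7484, 7671 and 11053. Any 2 libraries shared between 27 and 30 barcodes. The wildtype libraries differed beyond sampling noise (chi-square per degree of freedom 17.68 over 22535 genes). Clustering used scanpy 1.11.5 (2000 variable genes, none of them a member, 30 components, 15 neighbours, Leiden resolution 2). Clusters were named from a marker list, so classes may differ from the study's own, and clusters of low UMI totals (4081, 3046 and 7088 barcodes) stayed out. Resolution 2 in place of 1, and 14 cluster steps in place of 10 pseudotime bins, since pseudotime did not follow the order of the germ classes, were chosen after seeing the data. The members and lists were chosen with earlier results of these data known.

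Sums of UMIs by class and library were tested with edgeR 4.0.16 in R 4.3.3, with library as a block because the classes of a library share their mice; DESeq2 1.42.0 was an alternative. Standard errors were derived from the F statistic on 10 residual degrees of freedom. The fit was also run on simulated counts, in which all classes shared the spermatogonial profile except for genes changed in early spermatocytes. Such counts could not check the scaling between classes as unlike as the real ones. Myoid totals as low as 466356 UMIs limit that class. Besides the members, the genes named are the 3 most like each member and, per pathway list and comparison, up to 2 called genes of largest change in each direction; the text gives some of each. Alternatives changed scaling, test, filters, cells, doublets and libraries. Promoters came from RefSeq tables for GRCm38.p6; windows of Apc, Csnk1a1 and Axin1 are not used here.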

Additional observations from a re-analysis of the deposited data

How the results depend on the processing

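The number of members called ran over 14 alternatives from 7 to 9 in the first germ cell comparison, 8 to 10 from early to late spermatocytes and on to round spermatids, 4 to 7 in the elongating comparison and 6 to 8 in myoid cells. With no replicate block it was 7, 8, 10, 6 and 8. Of the members' stage comparisons under alternatives, 623 kept their side of the threshold, and their direction where called. In the same direction, 47 lost the call and 20 gained it. Another 10 reversed, with a call in the main fit, the alternative or both. The 623 include changes of sign where neither value was called, such as Axin1 from spermatogonia to early spermatocytes (log2 fold change 0.03, and -0.22 by library size alone). With no doublets left out, log2 fold changes reversed for Gsk3b (0.01) and Lef1 (-0.78) from spermatogonia to early spermatocytes, and for Csnk1a1 (-0.05) and Tcf7l1 (0.50) from late spermatocytes to round spermatids. At Leiden resolution 1 Gsk3b was 0.08 and Lef1 -0.63 in the first comparison, and under the stricter cell filter Tcf7l1 was 0.13 from late spermatocytes to round spermatids. By library size alone, the elongating comparison gave -0.56 for Apc, -1.46 for Axin1 and -0.89 for Gsk3b. The genes past the size rule numbered 26 in spermatogonia, 17 in early and 38 in late spermatocytes, 65 in round and 43 in elongating spermatids and 189 in myoid cells. At 1.5-fold they numbered 90, 54, 95, 137, 100 and 647, and without the CPM minimum 234, 83, 112, 174, 129 and 2050. The stricter cell filter gave 49 in early spermatocytes, and resolution 1 gave 312 in myoid cells. Leaving out either wildtype library gave 45 to 54 in spermatogonia, 19 to 27 in early spermatocytes and 635 to 643 in myoid cells. The members past the rule stayed at 0 except for 1 without the CPM minimum. Counted per cell, 5 of 10 members kept their highest class. A per-cell value is the share multiplied by the UMIs per cell, which differed between classes as described above. Why the other results moved with the processing was not tested. Low UMI numbers limit Axin2, Tcf7l1, Tcf7l2 and Lef1 in the myoid class and Axin2 and Tcf7l1 in spermatids.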
